A study of Mus musculus with 37 samples.

Results

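The collagen family was examined in hippocampal RNA-seq of mice with and without Kdm1a in forebrain excitatory neurons. Members were the protein-coding genes whose GENCODE M21 symbol is Col, a number, the letter a and a number. They were 44 of the 48795 genes in the count table, and 42 of them were among the 16799 genes that passed a filter on low counts and were tested. Kdm1a-ifKO mice carried floxed Kdm1a alleles (exons 5 and 6) and the Camk2a-creERT2 recombinase, which is active in excitatory neurons of the forebrain and needs tamoxifen. Controls were littermates without the recombinase, and both groups received tamoxifen at 8 weeks of age. All were male, with 3 libraries per genotype, each from whole hippocampal tissue, so that the RNA came from all cell types while the deletion was confined by the driver to excitatory neurons. CTCF ChIA-PET, which joins pairs of genomic sites held together with the architectural protein CTCF, was available for 1 library, labelled wild type for Kdm1a and tamoxifen-treated, of sorted Camk2a-positive nuclei. Per the study's methods such nuclei came from another cross that does carry the recombinase, Camk2a-creERT2 with the nuclear tag CAG-Sun1/sfGFP, at 12 weeks of age.

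Collagens are proteins of the extracellular matrix in which 3 alpha chains wind into a triple helix. Fibrillar types form the fibrils of connective tissue, type IV forms the network of basement membranes, type VI forms beaded filaments and FACIT collagens attach to fibrils. Multiplexins lie in basement membranes, and transmembrane collagens sit in the plasma membrane. In the brain, much of the collagen is made by cells of blood vessels and meninges, and neurons make some types themselves. The 44 members were grouped as fibrillar (Col1a1, Col1a2, Col2a1, Col3a1, Col5a1, Col5a2, Col5a3, Col11a1, Col11a2, Col24a1, Col27a1), basement membrane (Col4a1, Col4a2, Col4a3, Col4a4, Col4a5, Col4a6), beaded filament (Col6a1, Col6a2, Col6a3, Col6a4, Col6a5, Col6a6) and FACIT (Col9a1, Col9a2, Col9a3, Col12a1, Col14a1, Col16a1, Col19a1, Col20a1, Col22a1). The smaller classes were hexagonal network (Col8a1, Col8a2, Col10a1), multiplexin (Col15a1, Col18a1), transmembrane (Col13a1, Col17a1, Col23a1, Col25a1) and anchoring fibril and other (Col7a1, Col26a1, Col28a1).

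In brief, Col18a1, Col5a1, Col13a1, Col6a2 and Col16a1 were higher in Kdm1a-ifKOs and no collagen was lower. Each of the 5 belongs to another class, and the chains with which Col5a1 and Col6a2 assemble did not pass the test. Type IV collagens, the most abundant in this tissue, had mean log2FC values near 0 for the chains at high level. Together with the collagens, 10 of 34 genes for collagen folding, processing and crosslinking were higher, beside 6.04% of all tested genes. The largest log2FC among them was that of the lysyl oxidase Loxl1, and DESeq2 called 7 of these 10. This list was chosen with earlier results of these data known, so its share is not an independent one.

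The libraries held 18985542 to 19469947 counts each. Kdm1a itself had 80.1 ± 0.897 CPM (counts scaled to library size, SD, n = 3) in controls against 38.2 ± 1.23 CPM in Kdm1a-ifKOs (log2FC -1.07, adjusted p = 6.24e-08 in edgeR). A principal component analysis separated the genotypes on its first component (50.2% of the variance), while on its second (16.6%) control replicate 3 and Kdm1a-ifKO replicate 2 lay on the side opposite to the remaining 4. Genes are called here when p, adjusted by Benjamini-Hochberg over all 16799 tested genes, was under 0.05 in the quasi-likelihood test of edgeR. Labels do not say more of the origin of the libraries than genotype and replicate. The study's methods state 3 mice per genotype and a separate library for each sample, so p-values measure the spread between these mice. A change in bulk tissue can come from more cells of a type or from more RNA per cell, and these cannot be told apart here.

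In control hippocampus, levels per gene length (TPM, counts scaled to exon length and library size) differed widely among collagens. The 5 highest were Col4a2 (81.3 TPM), Col6a1 (61.7 TPM), Col4a1 (51.0 TPM), Col25a1 (26.2 TPM) and Col11a2 (25.1 TPM), and they held 60.8% of the summed collagen TPM. Col4a1 and Col4a2 encode the chains of the common type IV network of vessel walls, Col6a1 a chain of type VI filaments, Col25a1 a transmembrane collagen of neurons and Col11a2 a chain of the fibrillar type XI. A control mean over 10 TPM was found for 10 collagens, and 12 were under 1 TPM. In the order of levels, 37 of 43 neighbouring pairs had overlapping ranges over the 3 controls, so that most neighbours in that order did not differ beyond their spread. Col10a1, the collagen of hypertrophic cartilage, and Col17a1, the collagen of hemidesmosomes, had 12 and 21 counts over the 6 libraries and were not tested.

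Of the 42 tested collagens, 5 were higher in Kdm1a-ifKOs (11.9%), beside 6.04% of all tested genes. Taking either direction, 5 were called (11.9%), beside 8.85% of all tested genes. None was lower in edgeR or DESeq2, beside 2.82% of all tested genes called lower in edgeR. None of the lower values had an unadjusted p under 0.05. With an unadjusted p under 0.05, 11 collagens were higher. The share over all tested genes at that threshold was not taken, so this count has no background beside it. Log2FC was above 0 for 29 and below 0 for 13, with a median of 0.17, beside a median of -0.00342 and 49.1% of genes above 0 over all tested genes. In 7 collagens (16.7%) all Kdm1a-ifKO libraries lay above all controls, beside 15.7% of all tested genes, so that this share was near the background. These 7 were the 5 called genes, Col7a1 of anchoring fibrils and Col11a2. No collagen had all Kdm1a-ifKO libraries below all controls, beside 14.4% of all genes. With a log2FC over 0.5, 4 collagens were called (9.52%, beside 3.15% of all tested genes). With a log2FC over 1, 3 collagens were called (7.14%, beside 1.36% of all tested genes).

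**Figure D1:**
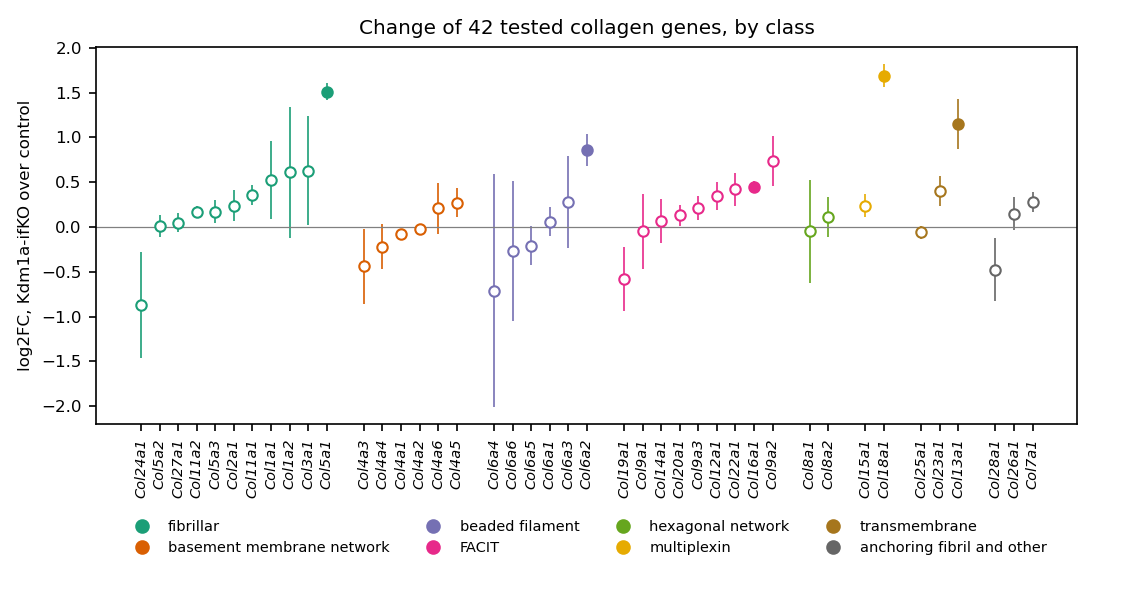
Log2FC of Kdm1a-ifKO over control for the 42 tested collagen genes (y axis), ordered by class and value. Bars are standard errors and filled circles have an adjusted p under 0.05; 1 called gene stands in each of the fibrillar, beaded filament, FACIT, multiplexin and transmembrane classes, and none among the 6 type IV chains.

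Promoters of the called genes other than Col16a1, whose window overlaps annotated exons, and of Col6a1 are shown as context for the positions given below, since Col6a1 and Col6a2 are neighbours on chromosome 10 and only Col6a2 was called. Sequences are from RefSeq (GRCm38.p6), up to 250 bases before the start of transcription, 5′ to 3′ on the gene's strand, without bases annotated as exon. For Col18a1 and Col6a2 RefSeq also gives another start, whose window lay mostly in exons and is not shown. Capitals mark CG dinucleotides.

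Col5a1 promoter, chr2:27886175-27886424, plus strand: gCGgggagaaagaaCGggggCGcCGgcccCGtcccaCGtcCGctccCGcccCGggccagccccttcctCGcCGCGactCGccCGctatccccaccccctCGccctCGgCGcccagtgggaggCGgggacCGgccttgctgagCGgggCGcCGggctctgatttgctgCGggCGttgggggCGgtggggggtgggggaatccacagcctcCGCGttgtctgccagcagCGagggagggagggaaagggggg

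Col13a1 promoter, chr10:61979109-61979358, minus strand: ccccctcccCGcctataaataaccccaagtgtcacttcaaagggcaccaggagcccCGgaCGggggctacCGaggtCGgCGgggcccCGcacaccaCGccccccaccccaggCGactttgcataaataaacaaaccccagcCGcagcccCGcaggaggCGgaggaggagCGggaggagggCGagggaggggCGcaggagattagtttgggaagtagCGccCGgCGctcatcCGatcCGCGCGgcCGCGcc

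Col18a1 promoter, chr10:77166549-77166780, minus strand: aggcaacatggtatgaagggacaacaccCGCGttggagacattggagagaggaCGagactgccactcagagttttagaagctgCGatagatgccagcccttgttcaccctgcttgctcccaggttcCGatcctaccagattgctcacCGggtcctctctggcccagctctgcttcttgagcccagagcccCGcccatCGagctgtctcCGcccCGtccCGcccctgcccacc

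Col6a2 promoter, chr10:76623631-76623880, minus strand: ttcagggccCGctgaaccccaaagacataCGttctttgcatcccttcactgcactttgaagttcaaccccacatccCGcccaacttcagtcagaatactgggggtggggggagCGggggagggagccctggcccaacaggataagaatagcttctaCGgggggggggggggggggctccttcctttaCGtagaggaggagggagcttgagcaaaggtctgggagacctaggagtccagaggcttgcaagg

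Col6a1 promoter, chr10:76726169-76726294, minus strand: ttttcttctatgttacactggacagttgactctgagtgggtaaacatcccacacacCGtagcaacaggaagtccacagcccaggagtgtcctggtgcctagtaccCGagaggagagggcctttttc

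The printed stretches held 28 CG dinucleotides for Col5a1, 24 for Col13a1, 11 for Col18a1, 6 for Col6a2 and 2 for Col6a1. The ratio of observed to expected CG, for which a value near 1 means no depletion, was 0.77, 0.81, 0.53, 0.28 and 0.24 in the same order. Thus the printed stretches of Col5a1 and Col13a1 were rich in CG and those of Col6a2 and Col6a1 poor, while the window of the other Col6a2 start, which is not shown, held 14 CG with a ratio of 0.61. RefSeq promoters were matched to 35 of the 44 collagens. A ratio over 0.6 was found for 11 of them (31.4%), beside 34.0% of all 32851 promoters of this length, and for 3 of the 5 called collagens (Col5a1, Col13a1 and, by its other start, Col6a2). A GC box (GGGCGG, or CCGCCC for the other strand), the motif of Sp1-type factors, was present for 21 of 35 collagens (60.0%) and 4 of the 5 called, beside 32.7% of all promoters. Genes with more than 1 promoter in RefSeq were counted once and as positive for any of them. A motif match describes the letters of the window and was not tested for binding.

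Among the multiplexins, Col18a1 had the largest log2FC of the family. It encodes the heparan sulfate collagen of basement membranes whose end fragment is endostatin. Its level was 4.71, 6.20 and 4.84 CPM in controls and 14.9, 17.9 and 18.0 CPM in Kdm1a-ifKOs. All Kdm1a-ifKO libraries lay above all controls, by 3.22-fold in the fit (log2FC 1.69 ± 0.129 SE, adjusted p = 2.14e-06). Col15a1, the other multiplexin, had 7.27 ± 0.933 and 8.60 ± 0.665 CPM (SD, n = 3) and did not pass the test (log2FC 0.24, adjusted p = 0.269). The summed level of both genes was 7.52 ± 1.05 TPM in controls and 15.0 ± 1.37 TPM in Kdm1a-ifKOs, and Col18a1 held 88.6% of that difference.

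Col5a1 was the called member among the fibrillar collagens. It encodes the main chain of type V collagen, which sits inside type I fibrils and sets their width. Its level was 39.0, 39.4 and 30.7 CPM in controls and 101, 113 and 96.8 CPM in Kdm1a-ifKOs. The groups did not overlap, and the fitted change was 2.85-fold (log2FC 1.51 ± 0.0968 SE, adjusted p = 7.06e-06). Its partner chains did not pass the test. Col5a2 had 13.1, 18.0 and 18.4 CPM in controls and 15.7, 15.8 and 18.1 CPM in Kdm1a-ifKOs (log2FC 0.01, adjusted p = 0.986). Col5a3 had 9.41, 7.19 and 7.68 CPM in controls and 8.48, 9.95 and 8.99 CPM in Kdm1a-ifKOs (log2FC 0.17, adjusted p = 0.439). Both partners overlapped between the genotypes, and Col5a2 had a log2FC below 0 in the fits without control replicate 1 (-0.14) or without Kdm1a-ifKO replicate 3 (-0.06).

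The balance of type V chains was also described within each library as a log2 ratio of CPM, after adding 0.5 CPM. These ratios rest on the same values as the tests above and are not independent of them. The Col5a1 to Col5a2 ratio was 1.54, 1.11 and 0.73 in controls and 2.65, 2.80 and 2.39 in Kdm1a-ifKOs, on the log2 scale. The difference of means was 1.49 and the groups did not overlap. In transcripts per length, this corresponds to 2.49 and 7.09 Col5a1 transcripts for each Col5a2 transcript. For Col5a1 to Col5a3 the log2 ratio was 1.99, 2.37 and 1.93 in controls and 3.50, 3.44 and 3.36 in Kdm1a-ifKOs, a difference of means of 1.34 without overlap. In the exact two-sided permutation test both had p = 0.1, the smallest that 3 against 3 can give, and an adjusted p of 0.3 over the 9 chain pairs compared.

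The remaining fibrillar collagens did not pass the test. Col11a1 and Col11a2, chains of type XI, had log2FC values of 0.36 (adjusted p = 0.0838) and 0.17 (adjusted p = 0.134), and their ratio differed by -0.18 (exact permutation p = 0.2, adjusted p = 0.45). Col11a1 was the 1 collagen more that DESeq2 called (adjusted p = 0.0268). The summed level of the 11 fibrillar genes was 77.0 ± 0.632 TPM in controls and 119 ± 10.0 TPM in Kdm1a-ifKOs, and Col5a1 held 75.4% of the difference. Without Col5a1 the sums were 59.9 ± 2.56 and 70.3 ± 6.07 TPM.

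**Figure D2:**
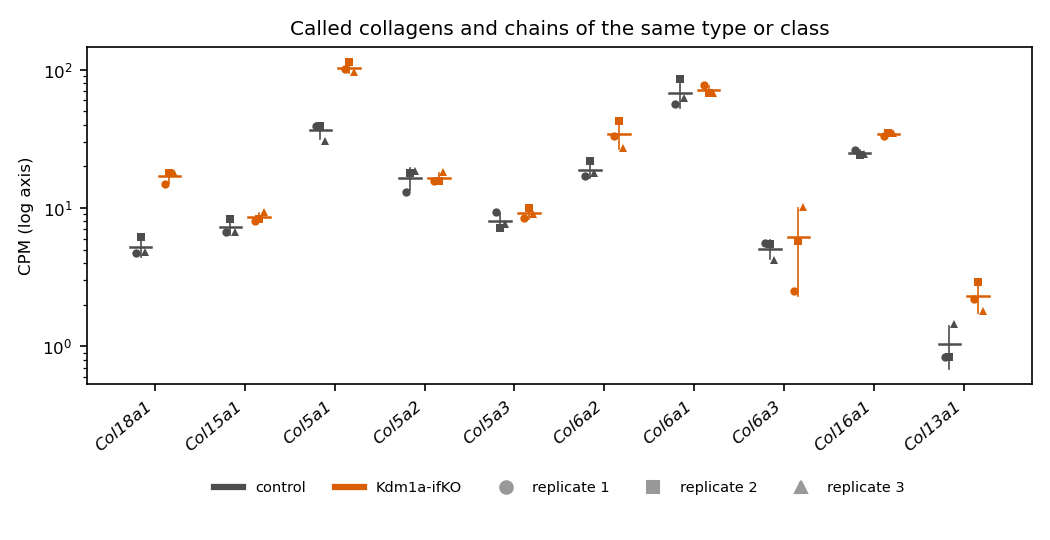
CPM in each library on a log axis for the 5 called collagens and for chains of the same type or class, by genotype. Points are libraries, horizontal lines are means and vertical lines 1 SD (n = 3); Col18a1, Col5a1, Col6a2, Col16a1 and Col13a1 do not overlap between genotypes, whereas Col15a1, Col5a2, Col5a3, Col6a1 and Col6a3 do.

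Among the beaded filament collagens, Col6a2 was called. It encodes a chain of type VI collagen, which is built from the products of Col6a1, Col6a2 and another, longer chain like that of Col6a3. Its level was 17.0, 21.7 and 17.9 CPM in controls and 32.9, 42.7 and 27.3 CPM in Kdm1a-ifKOs. All Kdm1a-ifKO libraries were higher than all controls, with a fitted change of 1.82-fold (log2FC 0.86 ± 0.179 SE, adjusted p = 0.0318). The call depended on single libraries: it was lost without control replicate 1, control replicate 3 or Kdm1a-ifKO replicate 1, with an adjusted p of up to 0.177, while the log2FC stayed between 0.64 and 1.00 in the alternatives tried.

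Col6a1 had 56.1, 85.7 and 62.4 CPM in controls and 77.6, 67.8 and 67.9 CPM in Kdm1a-ifKOs (log2FC 0.06, adjusted p = 0.861). Col6a3 had 5.60, 5.46 and 4.19 CPM in controls and 2.52, 5.74 and 10.2 CPM in Kdm1a-ifKOs (log2FC 0.28, adjusted p = 0.796). Neither passed the test, and their log2FC fell below 0 in some fits that left out 1 library (down to -0.06 and -0.30). Ratios of type VI chains, like those of type V, rest on the same values as the tests of each gene. The log2 ratio of Col6a1 to Col6a2 was 1.69, 1.96 and 1.77 in controls and 1.23, 0.66 and 1.30 in Kdm1a-ifKOs. It was lower by a mean difference of -0.74 without overlap (exact permutation p = 0.1, adjusted p = 0.3), or 6.85 against 3.94 Col6a1 transcripts for each Col6a2 transcript. For Col6a3 to Col6a2 the difference of -0.75 did not separate the groups (exact permutation p = 0.4, adjusted p = 0.6). The summed level of the 6 genes was 76.5 ± 14.9 TPM in controls and 86.2 ± 5.87 TPM in Kdm1a-ifKOs, a difference within the spread of the controls.

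Type IV collagens differed little in the chains that were abundant. Col4a1 had 102, 92.9 and 92.8 CPM in controls and 86.4, 89.2 and 95.3 CPM in Kdm1a-ifKOs (log2FC -0.08 ± 0.059 SE, adjusted p = 0.409). Col4a2 had 143, 129 and 134 CPM in controls and 136, 125 and 139 CPM in Kdm1a-ifKOs (log2FC -0.02 ± 0.0582 SE, adjusted p = 0.848). Both genes overlapped between genotypes and their ratio differed by -0.06 on the log2 scale (exact permutation p = 0.3, adjusted p = 0.54). The 4 scarcer chains, known from the basement membranes of kidney and other organs, had log2FC values from -0.44 (Col4a3) to 0.27 (Col4a5) and none passed the test. The class summed to 138 ± 7.4 TPM in controls and 135 ± 3.97 TPM in Kdm1a-ifKOs, which was the largest class sum in either genotype.

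Col16a1 was the called FACIT collagen. Its product joins small fibrils and binds to integrin receptors. It had 26.3, 24.0 and 24.7 CPM in controls and 33.2, 34.6 and 35.0 CPM in Kdm1a-ifKOs. The spread within each genotype was small and the groups did not overlap (1.37-fold, log2FC 0.45 ± 0.0671 SE, adjusted p = 0.000801). The other 8 FACIT genes did not pass the test, with log2FC values from -0.58 (Col19a1) to 0.74 (Col9a2). Col9a3 (log2FC 0.21, adjusted p = 0.376) overlaps by 234 bp on the opposite strand with Tcfl5, which was higher in Kdm1a-ifKOs (log2FC 6.17, adjusted p = 9.85e-08). The strand setting of the counting is not given in the sources used here, so a share of Tcfl5 reads in the Col9a3 count cannot be told apart.

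Among the transmembrane collagens, Col13a1, whose product lies at sites of cell adhesion and at the neuromuscular junction, was called at a low level. It had 16, 16 and 27 counts in controls and 43, 58 and 35 in Kdm1a-ifKOs, or 0.837, 0.840 and 1.45 CPM and 2.21, 2.94 and 1.80 CPM. The groups did not overlap, with a fitted change of 2.22-fold (log2FC 1.15 ± 0.283 SE, adjusted p = 0.0228). Its call was lost without control replicate 1 or 2 or Kdm1a-ifKO replicate 1 or 2 (adjusted p of up to 0.0775), while the log2FC stayed between 0.94 and 1.46 in the alternatives tried. Col25a1, the abundant neuronal member, had 85.5 ± 8.96 CPM in controls against 82.3 ± 3.00 CPM in Kdm1a-ifKOs (SD, n = 3, log2FC -0.06, adjusted p = 0.682). Col23a1 had a log2FC of 0.40 (adjusted p = 0.203). In contrast to Col13a1 and Col6a2, the calls of Col18a1, Col5a1 and Col16a1 held in all 13 alternatives tried, with adjusted p-values of at most 3.69e-05, 0.000123 and 0.00662. No gene of the hexagonal network class or of the anchoring fibril and other class passed the test, and their log2FC values lay between -0.48 (Col28a1) and 0.28 (Col7a1).

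Several collagens were high in Kdm1a-ifKO replicate 2, and the following genes were named after their values were seen. Col1a1 had 6.12, 6.30 and 7.25 CPM in controls and 6.32, 15.8 and 6.11 CPM in Kdm1a-ifKOs. Col1a2, its partner in type I fibrils, had 7.32, 7.61 and 11.2 CPM in controls and 5.86, 26.7 and 7.29 CPM in Kdm1a-ifKOs. Col3a1, the type III chain of soft tissue, had 1.36, 2.36 and 3.01 CPM in controls and 1.65, 6.45 and 2.31 CPM in Kdm1a-ifKOs. In each of the 3 genes a single Kdm1a-ifKO library was above all others, and the other libraries of both genotypes overlapped. Their log2FC was 0.52, 0.61 and 0.63 with all libraries and -0.08, -0.41 and -0.18 without Kdm1a-ifKO replicate 2, and none passed the test in either fit. The ratio of Col1a1 to Col1a2 differed by 0.07 between genotypes (exact permutation p = 0.8, adjusted p = 0.8). Col9a2 was also highest in that library (10.2 CPM, beside 4.58 and 6.26 CPM in the other Kdm1a-ifKO libraries and 3.87 to 4.89 CPM in controls).

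Markers of vascular leptomeningeal cells, the fibroblast-like cells of the meninges and vessel walls, were as a sum also highest in Kdm1a-ifKO replicate 2. Their 13 markers summed to 88.6, 97.6 and 109 CPM in controls and to 92.2, 176 and 52.5 CPM in Kdm1a-ifKOs. The sum was lowest in Kdm1a-ifKO replicate 3, where Col1a1, Col1a2 and Col3a1 had 6.11, 7.29 and 2.31 CPM. Dcn had the highest level of the 13, with 54.9, 62.7 and 54.1 CPM in controls and 60.9, 64.9 and 23.2 CPM in Kdm1a-ifKOs. In edgeR 0 of the 13 were called (3 at an unadjusted p under 0.05, 1 called by DESeq2), and none was at 0 in all libraries. Mural cell markers summed to 307 to 314 CPM in controls and 309, 424 and 314 CPM in Kdm1a-ifKOs. Of these 10 markers 1 was called (Pdgfrb, higher), beside 6.04% of all tested genes called higher. Endothelial markers summed to 311 to 323 CPM and 299 to 368 CPM, with 0 of 12 called in edgeR or DESeq2 and 0 at an unadjusted p under 0.05. The part of these cells in the levels of Col1a1, Col1a2 and Col3a1 was not tested. Among the called collagens, Col5a1, Col6a2 and Col13a1 were also highest in Kdm1a-ifKO replicate 2. Without that library the log2FC was 1.64 for Col18a1, 1.44 for Col5a1, 0.67 for Col6a2, 0.44 for Col16a1 and 0.94 for Col13a1. In that edgeR fit Col13a1 was not called (adjusted p = 0.0775), while the others were. The part of leptomeningeal and vascular cells in the called collagens was not tested.

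**Figure D3:**
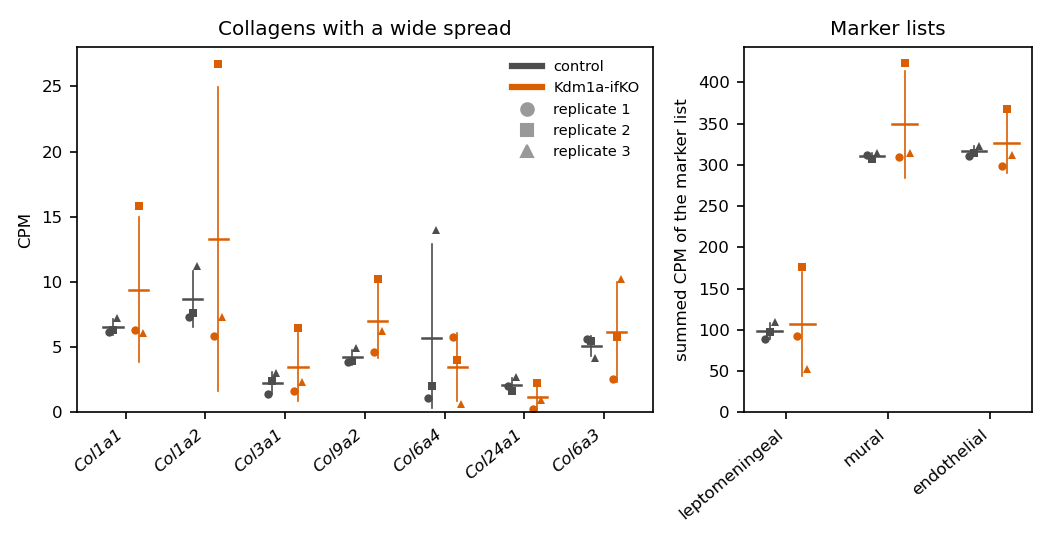
CPM of collagens with a wide spread between libraries (left) and summed CPM of 3 lists of cell type markers (right), by genotype and replicate. Lines are means with 1 SD (n = 3); Kdm1a-ifKO replicate 2 (square) is the highest library for Col1a1, Col1a2, Col3a1, Col9a2 and each of the marker lists.

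A pair of further genes had wide spreads. Col6a4 had 14.0 CPM in control replicate 3 and 0.616 to 5.76 CPM in the other libraries (log2FC -0.71 ± 1.30 SE). Col24a1, a fibrillar collagen, had 1.99, 1.63 and 2.69 CPM in controls and 0.257, 2.23 and 0.924 CPM in Kdm1a-ifKOs. Its log2FC was -0.87 (adjusted p = 0.428), and without Kdm1a-ifKO replicate 2 it was -1.82 and passed the test (adjusted p = 0.0219). Thus the count of 0 collagens lower rested on that library, and was 1 without it.

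Other lists of markers were examined in the same fit, in which 6.04% of all tested genes were higher and 2.82% lower. Among microglial markers 4 of 10 were higher (C1qb, Csf1r, Cx3cr1 and Tmem119). At an unadjusted p under 0.05 in edgeR it was 9 of the 10, and DESeq2 called 7. The list summed to 418 to 457 CPM in controls and 479 to 623 CPM in Kdm1a-ifKOs. Among astrocyte markers 4 of 9 were higher (Aldoc, S100b, Slc1a3 and Sox9), with sums of 5500 to 6110 and 6150 to 6470 CPM. Of these 9, 5 had an unadjusted p under 0.05 in edgeR and DESeq2 called 4. Markers of the oligodendrocyte lineage had 0 of 10 called in edgeR (1 at an unadjusted p under 0.05, 1 called by DESeq2), and their sums overlapped (5540 to 6070 and 5190 to 6640 CPM). Excitatory neuron markers had sums of 8000 to 8310 CPM in controls and 7670 to 8480 CPM in Kdm1a-ifKOs, which overlapped. Of interneuron markers 2 of 8 were lower (Npy and Vip), with sums of 875 to 945 and 844 to 879 CPM. Of these 8, 5 had an unadjusted p under 0.05 in edgeR and DESeq2 called 2. For unadjusted and DESeq2 counts of the marker lists, the share over all tested genes was not taken. In the choroid plexus list 1 of 8 tested markers was higher, Kl, with 22.5 to 26.9 CPM in controls and 56.4 to 60.6 CPM in Kdm1a-ifKOs. The whole list summed to 41.9 to 68.3 and 72.3 to 79.6 CPM, and without Kl to 44.5, 19.5 and 18.4 CPM in controls and 12.0, 15.9 and 19.6 CPM in Kdm1a-ifKOs, which overlapped. In the thalamic list Prkcd was higher and Slc17a6 lower, with sums of 99.4 to 105 and 102 to 114 CPM. No list had a marker at 0 in all libraries, and the part of any of these cell types in the called collagens was not tested.

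Collagen chains are modified and folded in the endoplasmic reticulum, trimmed outside the cell and crosslinked by lysyl oxidases. Of 34 tested genes for these steps, 10 were higher in Kdm1a-ifKOs (29.4%, beside 6.04% of all tested genes). The list was chosen with earlier results of these data known, which limits that comparison. None was lower in edgeR or DESeq2, beside 2.82% of all tested genes, with 2 lower at an unadjusted p under 0.05. Among the 22 folding and secretion genes, 5 were higher. These were Creb3l1, a transcription factor for secretory and collagen genes (log2FC 0.87, adjusted p = 0.00657), P3h4 and Plod1 of prolyl and lysyl hydroxylation (log2FC 0.47 and 0.44, adjusted p = 0.00964 and 0.00533), the collagen chaperone Serpinh1 (log2FC 0.39, adjusted p = 0.0241) and the prolyl isomerase Fkbp10 (log2FC 0.44, adjusted p = 0.0457). The prolyl 4-hydroxylase subunits P4ha1, P4ha2 and P4ha3, which form the hydroxyproline of the helix, had log2FC values of 0.11, 0.02 and 0.02 and were not called.

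Of 12 processing and crosslinking genes 5 were higher, beside the same 6.04% of all tested genes. Loxl1, a lysyl oxidase best known for elastic fibres, had 3.40, 3.57 and 3.82 CPM in controls and 21.8, 18.6 and 20.8 CPM in Kdm1a-ifKOs. The groups were far apart, at 3.59 ± 0.209 and 20.4 ± 1.63 CPM (SD, n = 3, log2FC 2.50 ± 0.111 SE, adjusted p = 1.42e-08). Lox rose from 13 counts over the controls to 64 over the Kdm1a-ifKOs (log2FC 2.22 ± 0.451 SE, adjusted p = 0.00809). Loxl4 rose from 15 to 50 counts (log2FC 1.67 ± 0.385 SE, adjusted p = 0.0168). Bmp1, the protease that removes the C-propeptide of fibrillar procollagens, had 99.3 ± 3.61 CPM in controls against 157 ± 18.5 CPM in Kdm1a-ifKOs (log2FC 0.66, adjusted p = 0.000351). Adamts14, of the enzymes that remove the N-propeptide, was called with a log2FC of 0.52 (adjusted p = 0.0462). DESeq2 did not call Fkbp10, Adamts14 or Loxl4. Over the 13 alternatives the call held in 9 for Serpinh1, 7 for Loxl4, 5 for Adamts14 and 4 for Fkbp10, and in all 13 for the other 6 genes.

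Of 38 tested receptors and matrix partners of collagens, 10 were higher (26.3%, beside 6.04% of all tested genes). These lists, too, were chosen with earlier results of these data known. None was lower in edgeR or DESeq2, beside 2.82% of all tested genes called lower in edgeR. None was lower at an unadjusted p under 0.05, for which the share over all tested genes was not taken. Among the receptors, the higher genes were the collagen-binding integrin chains Itga10 (log2FC 0.70, adjusted p = 0.00643) and Itga11 (log2FC 0.60, adjusted p = 0.0409), and the receptor tyrosine kinase Ddr1 (log2FC 0.27, adjusted p = 0.0431). Of the 16 partners in basement membranes, Nid2 (log2FC 0.81, adjusted p = 0.00403), the proteoglycan perlecan Hspg2 (log2FC 0.55, adjusted p = 0.000594) and the laminin chain Lama5 (log2FC 0.48, adjusted p = 0.00194) were higher. Of 14 fibril-associated proteins, Comp, Tnxb, Matn2 and Prelp were higher. Comp, a cartilage protein, rose from 20 counts over the controls to 64 over the Kdm1a-ifKOs (log2FC 1.61, adjusted p = 0.0158), and Matn2 and Prelp had log2FC values of 0.32 and 0.30 (adjusted p = 0.00925 and 0.00872). Tnxb, which encodes a tenascin that binds fibrils, had 33.1 ± 0.684 CPM in controls against 63.2 ± 9.17 CPM in Kdm1a-ifKOs (SD, n = 3, log2FC 0.93, adjusted p = 0.000131). DESeq2 did not call Comp. Over the 13 alternatives the call held in 7 for Ddr1, 9 for Itga11, 10 for Comp and 12 for Matn2, and in all 13 for the other 6 genes.

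**Figure D4:**
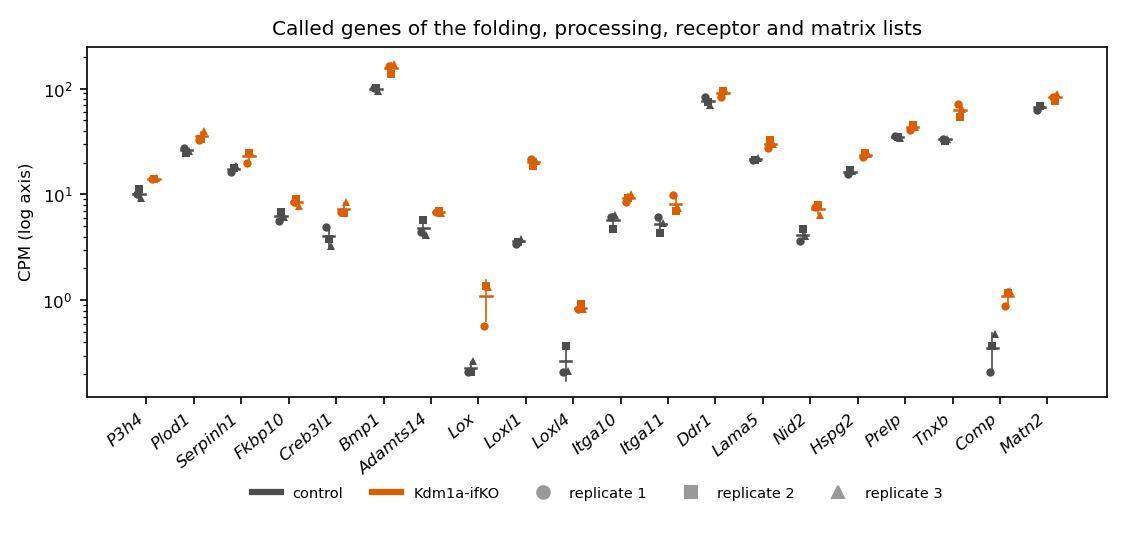
CPM in each library, on a log axis, of the called genes for collagen folding, processing, receptors and matrix partners. Points are libraries, horizontal lines means and vertical lines 1 SD (n = 3); Loxl1 shows the widest gap between the genotypes, from 3.82 CPM in the highest control to 18.6 CPM in the lowest Kdm1a-ifKO library.

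Genes next to the 4 collagens called with a log2FC over 0.5 were examined, taking protein-coding genes within 100 kb of Col18a1, Col5a1, Col13a1 and Col6a2. Of 11 such genes 8 were tested, and edgeR and DESeq2 called 0 of them, beside 8.85% of all tested genes called in either direction. With 8 genes, this count was near the background. The only such gene near Col5a1, Fcnb, had 6 counts over the 6 libraries and was not tested, so the count does not cover Col5a1. Pcbp3, Slc19a1 and Pofut2 near Col18a1 had log2FC values of -0.08, 0.11 and -0.03. Aifm2 and H2afy2 near Col13a1 had 0.06 and -0.10, and Mcm3ap, Lss and Col6a1 near Col6a2 had -0.04, 0.01 and 0.06. None of the 8 had an unadjusted p under 0.05. Near Col16a1, added after the values were seen, 1 of 5 tested genes was called (Hcrtr1, 30.9 kb away), so that with all 5 called collagens it was 1 of 13. Col18a1 overlaps Slc19a1 on the opposite strand, and 27 of the 44 collagens overlap another annotated gene, 5 of them a protein-coding one.

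CTCF loops, called by the authors from 1 library of Camk2a-positive nuclei and so without a replicate check, were used to describe where these genes lie. Of the 44 collagens, 37 had a loop anchor within 10 kb of the gene body (84.1%), beside 49.5% of protein-coding genes. Collagen genes are long, with a median of 114 kb beside 17.6 kb for protein-coding genes, and near the start site the shares were 47.7% and 31.7%. Gene length was not matched in that comparison. Col5a1 had 23 loops with 230 paired-end tags (PETs, read pairs that join both anchors), Col18a1 15 with 202, Col13a1 12 with 109, Col16a1 7 with 95 and Col6a2 3 with 55. The strongest Col18a1 loop (108 PETs, 118 kb) ran from inside the gene to the side of Pofut2.

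The 3 loops of Col6a2, with 31, 19 and 5 PETs and spans of 105, 110 and 108 kb, joined its start site with the start side of Col6a1. The called gene and its neighbour that did not pass the test thus lie at opposite ends of these loops, with the Col6a1 start itself outside the anchors. Over the loops of the 5 called collagens, 16 tested genes lay at the other anchors, and 2 of them were called, beside 8.85% of all tested genes: Rxra, a retinoid receptor looped to Col5a1 (42.8 to 54.8 CPM, log2FC 0.36, adjusted p = 0.00407), and Hcrtr1, an orexin receptor looped to Col16a1 (2.25 to 4.47 CPM, log2FC 0.99, adjusted p = 0.0132). With 16 genes, this count was near the background. The loop to Hcrtr1 had 3 PETs, the lowest number among the loops, and the strongest loop to Rxra had 10. Hcrtr1 is also the called neighbour of Col16a1 given above, so the counts are not separate.

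**Figure D5:**
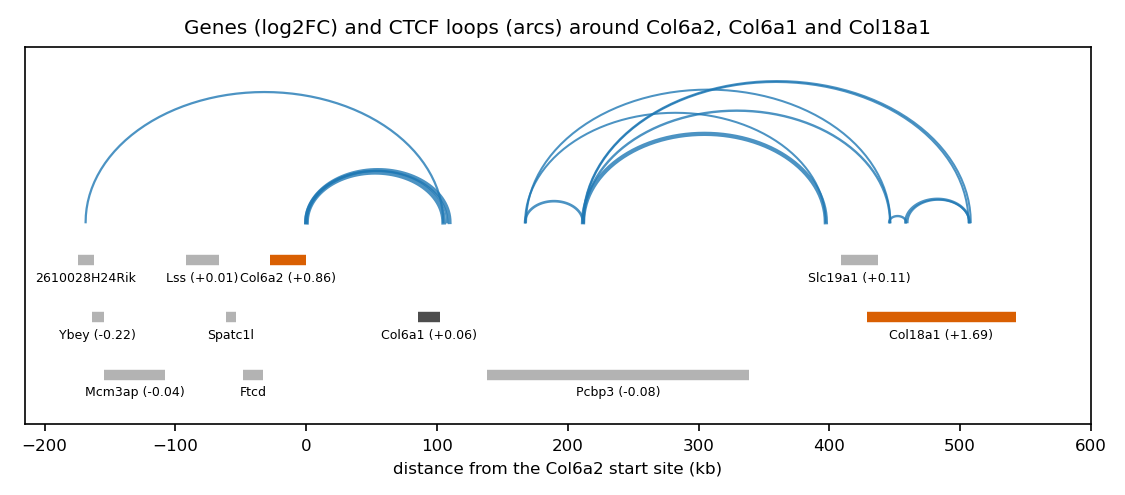
Map of protein-coding genes (bars, with log2FC where tested) and CTCF loops (arcs, thicker with more PETs, height by span, for loops with both anchors in the window) in kb from the Col6a2 start site, drawn for 1 library. The arcs of 31, 19 and 5 PETs join the start of Col6a2 (log2FC 0.86) with the start side of Col6a1 (log2FC 0.06). Col18a1 (log2FC 1.69) has separate loops.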

How the data were processed

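RNA-seq libraries of 3 control and 3 Kdm1a-ifKO hippocampi were analysed. The authors trimmed reads with cutadapt, aligned them to mm10 (GRCm38) with HISAT2 and took counts for Ensembl genes with HTSeq. These deposited counts are raw, with no normalization. The deposited PET counts of the CTCF loops come from loop calling by the authors, and the read depth before it is unknown. Positions, symbols and exon lengths were from GENCODE M21, and 99.1% of the counted genes were found in it.

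Genes were tested in edgeR 4.0.16 (R 4.3.3; filterByExpr, TMM, robust quasi-likelihood F test, genotype only, two-sided). SE was derived from the F statistic. CPM used TMM-normalized library sizes and TPM the summed exon length. Alternatives were DESeq2 1.42.0, other normalizations and filters, fold thresholds, a replicate block and libraries left out. The edgeR script was tested on simulated data. Chain ratios were compared with exact permutation tests (Python 3.11.15, scipy 1.17.1), adjusted over 9 pairs.

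The members and lists were chosen with earlier results of these data known. Genes named were the called collagens, the 5 highest in controls, partner chains of called collagens, collagens overlapping a called gene, called genes of the other lists and neighbours within 100 kb of collagens called with a log2FC over 0.5. Genes outside this rule were named after their values were seen: fibrillar, FACIT and other collagens given as ends of a range or for their spread, the 3 prolyl 4-hydroxylase subunits, and genes at loop anchors or near Col16a1. Results for some members of the marker and matrix lists are not reported here. ChIP-seq and 4C samples were not analysed here.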

Additional observations from a re-analysis of the deposited data

How the results depend on the processing

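The calls of Col18a1, Col5a1 and Col16a1 held in all 13 alternatives, while those of Col13a1 and Col6a2 depended on single libraries. The count of collagens higher (5) was 3 to 6 with 1 library left out, the lowest without control replicate 1, and 9 without a filter on low counts or without both libraries apart on the second component, a choice made after seeing the data; it was 3 with a log2FC over 1. Collagens lower (0) were 0 to 1 with 1 library left out (Col24a1, without Kdm1a-ifKO replicate 2) and 1 without both libraries. Folding, processing and crosslinking genes higher (10) were 6 to 8 with 1 library left out, the lowest without Kdm1a-ifKO replicate 3, 6 with a log2FC over 0.5 and 3 over 1. Receptors and matrix partners higher (10) were 8 to 9 with 1 library left out, 6 with a log2FC over 0.5 and 1 over 1; those lower (0) were 0 to 2 with 1 library left out (the highest without Kdm1a-ifKO replicate 2) and 3 without both libraries. Collagens near a loop anchor were 21 when only the start site was used. The log2FC of 3 partner chains that were not called turned negative in fits with 1 library left out: Col5a2 ranged from -0.14 to 0.09, Col6a1 from -0.06 to 0.26 and Col6a3 from -0.30 to 0.65. Causes of these changes were not tested, apart from the stricter thresholds. Replicate numbers did not pair the samples (correlations of deviations -0.032, -0.089 and -0.144), and with the replicate number as a block 7 collagens, 8 folding, processing and crosslinking genes and 11 receptors and partners were higher, and none was lower. Low counts limit Col13a1, Lox, Loxl4 and Comp.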
